A study of Ovis aries with 16 samples.

Results

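CLDN11 (ENSOARG00000000208), which encodes Claudin 11, is described here in the testes of 16 Merino male sheep, as 1 gene of the 25197 listed for each library. It was chosen because the study names it among the genes that respond to nutrition, so its diet difference had already been seen in these same samples. RNA was taken from the right testis, with tissue from its top, middle and bottom mixed, and 1 library was sequenced per sheep. During 65 days, 8 sexually mature sheep on the high diet were fed to gain 10% of their body mass and 8 on the low diet to lose 10%. Sheep of the 2 diets are called well-fed and underfed. Gain is set against loss, so a difference cannot be assigned to either alone.

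Claudins are small membrane proteins that join neighbouring cells at tight junctions and set how tightly the space between the cells is sealed. In the seminiferous tubules of the testis, Claudin 11 is made by Sertoli cells, the somatic cells that nurse the germ cells, and is a main component of the blood-testis barrier. The barrier separates spermatogonia at the base of the tubule from the meiotic and later germ cells, and male mice without the gene are sterile. In bulk testis RNA a change in a Sertoli cell gene can come from more Sertoli cells among all cells or from more RNA of the gene per Sertoli cell, and these cannot be told apart here.

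Reads on genes ranged from 9552149 to 18230076 per library in well-fed sheep and from 7646547 to 14690953 in underfed sheep. The labelled tissue was checked with germ cell genes. DDX4, a germ cell RNA helicase, was between 566 and 1115 CPM (the read count scaled to the library's total on genes) in well-fed and between 322 and 834 CPM in underfed sheep. On the first principal component of the genes tested, which held 59.6% of the variance, low diet replicate 7 lay among the other libraries. On the second, which held 14.3%, this library stood apart, with a score of 78.3 against -25.7 to 26.5 in the other 15. It also had the lowest summed level of 7 spermatocyte markers of the 16 libraries, at 484 CPM. Results that rest on this sheep are therefore given with and without it.

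Underfed sheep had more CLDN11 than well-fed sheep, and the underfed sheep were spread over a wide range. In well-fed sheep, replicates 1 to 8 had 76.7, 77.1, 49.4, 47.8, 64.9, 80.2, 52.3 and 53.8 CPM, with a median of 59.4 CPM. In underfed sheep, replicates 1 to 8 had 90.6, 133, 183, 105, 99.2, 147, 370 and 55.0 CPM, with a median of 119 CPM. Of the 8 underfed sheep, 7 lay above every well-fed sheep, and low diet replicate 8 lay within the well-fed range. The underfed mean was 148 ± 97.9 CPM (SD, n = 8) and the well-fed mean 62.8 ± 13.6 CPM (SD, n = 8), a ratio of 2.36. With low diet replicate 7 left out, the underfed mean was 116 ± 41.7 CPM (SD, n = 7) and the ratio 1.85, and the ratio of the medians over all sheep was 2.01.

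**Figure D1:**
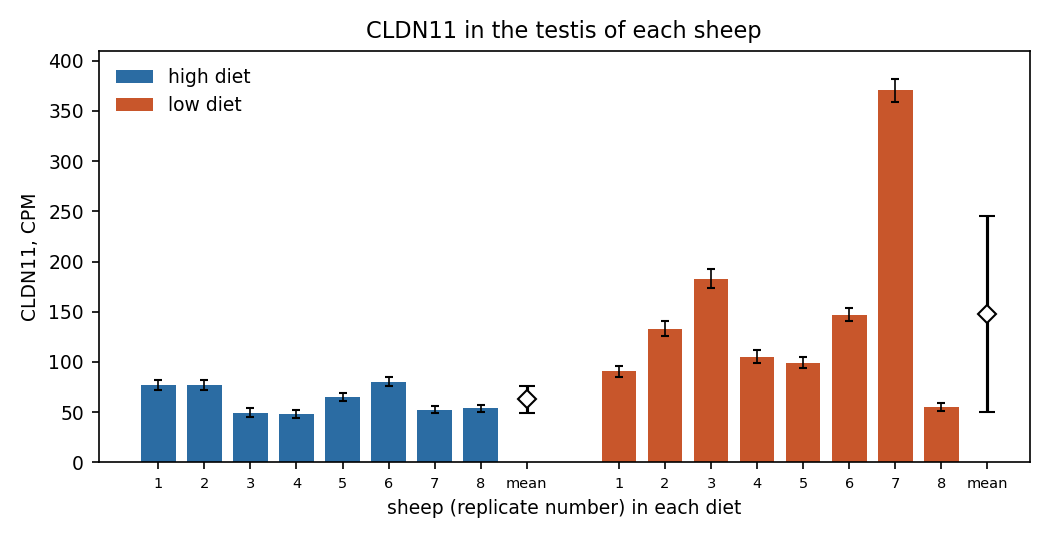
CLDN11 in CPM (y axis) in each sheep (x axis), with the well-fed sheep in blue and the underfed sheep in orange. Bars are single libraries with their 95% Wilson intervals, which cover counting error only, and diamonds are the mean ± SD of 8 sheep. Underfed replicate 7 reached 370 CPM, while underfed replicate 8, at 55.0 CPM, lay among the well-fed sheep.

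These values rested on 472 to 1239 reads of CLDN11 in well-fed sheep and on 607 to 3978 reads in underfed sheep. The counting error was therefore small beside the differences between underfed sheep. The 95% Wilson interval of low diet replicate 7 was 359 to 382 CPM, and that of low diet replicate 3, the next highest, was 173 to 192 CPM. In the order of levels from highest to lowest, the intervals of neighbouring sheep did not overlap over the first 5 places, from low diet replicates 7, 3, 6 and 2 to replicate 4. In unscaled CPM, low diet replicate 8, at 50.8 to 59.6 CPM, could not be separated from high diet replicate 8, at 50.5 to 57.3 CPM. The scaling factor for library composition, described below, was 0.996 for low diet replicate 8 and 0.739 for high diet replicate 8. After this scaling their log2 values were 5.81 and 6.21. In the lower part of the CPM order the intervals of high diet replicates 8, 7, 3 and 4 each overlapped the next. Intervals cover counting error only.

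For the comparison across genes, CPM was divided by the library's TMM factor (edgeR's scaling for library composition), and log2 values taken after adding 1 CPM went into a limma fit of the 11148 genes that exceeded 5 CPM in 8 or more libraries. On this log2 scale CLDN11 had a fold change, low diet over high diet, of 0.87 with a standard error of 0.28, and limma's Benjamini-Hochberg adjusted p was 0.060. It thus passed the adjusted p of 0.1 and the ratio of 1.5 that the study's methods set. Of all genes tested, 10.9% were called higher in underfed sheep by the adjusted p and 21.5% were called in either direction, against a median log2 fold change of 0.01. A log2 fold change above that of CLDN11 was measured for 7.09% of genes. For CLDN11 tested alone, an exact two-sided permutation test over 12870 assignments of the sheep gave p = 0.0073 (n = 8 per diet).

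The call across genes was close to the threshold. Without low diet replicate 3, 4 or 6 the adjusted p from limma was 0.110, 0.104 and 0.117, at log2 fold changes of 0.80, 0.91 and 0.85. The unadjusted p from limma was 0.020, 0.0094 and 0.011 in these fits, against 0.0066 with all sheep. The adjustment also depends on the other genes, of which fewer were called: 1806, 918 and 738, against 2396 with all sheep. Leaving out low diet replicate 7, the highest sheep, gave a log2 fold change of 0.64 with a standard error of 0.21 (adjusted p = 0.065 from limma). Leaving out low diet replicate 8, the lowest underfed sheep, gave 1.03 (adjusted p = 0.044 from limma). With testis weight as a covariate it was 0.46 with a standard error of 0.38 (adjusted p = 0.85 from limma), a fit in which 0 genes were called and 544 had an unadjusted p under 0.05. Diet and testis weight moved together, so their parts cannot be told apart in this design. On library totals, without the TMM factor, the log2 fold change was 1.04, where the median over all genes was 0.17 in place of 0.01.

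The spread of CLDN11 between underfed sheep was compared with that between well-fed sheep. On the log2 scale the SD was 0.80 on the low diet and 0.33 on the high diet, a ratio of 2.42. Over all genes tested the median of this ratio was 0.95, and 2.70% of genes had a higher ratio than CLDN11. Between well-fed sheep 74.2% of genes varied more than CLDN11, and between underfed sheep 9.56% did. When low diet replicate 7 was left out, the SD in underfed sheep was 0.50 and the ratio was 1.51, against a median of 0.85 over all genes, and 7.62% of genes had a higher ratio.

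**Figure D2:**
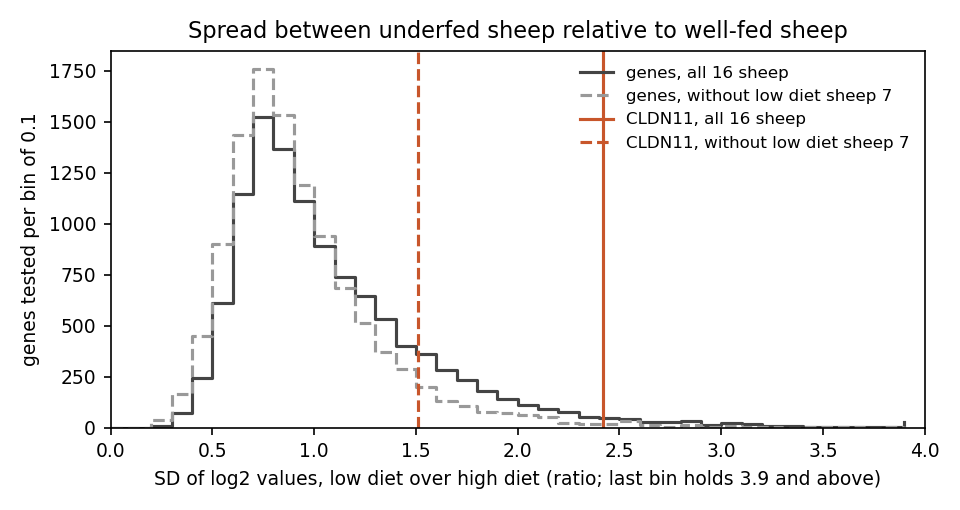
Ratio of the SD of log2 values in underfed sheep to that in well-fed sheep (x axis) for the 11148 genes tested, as the number of genes in each bin of 0.1 (y axis), with all sheep (solid) and without low diet replicate 7 (dashed). Orange lines mark CLDN11, at 2.42 with all sheep and at 1.51 without low diet replicate 7, in the upper part of both distributions.

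As a test over sheep, the mean absolute deviation from the diet's own median was 0.56 in underfed and 0.26 in well-fed sheep on the log2 scale. The difference of 0.30 did not pass the threshold (exact permutation test, two-sided, p = 0.19, n = 8 per diet). Without low diet replicate 7 it was 0.10 (exact permutation test, p = 0.51, n = 8 and 7). On the CPM scale, where spread grows with the mean, the same test gave a difference of 48.5 CPM (exact permutation test, p = 0.0042, n = 8 per diet). A wider spread of CLDN11 among underfed sheep was thus past the threshold on the CPM scale and not on the log2 scale.

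The relation of CLDN11 to the testis was examined with 6 traits recorded by the study in the same sheep, with 23 relations computed in all. Sheep with lighter testes had more CLDN11. For log2 CLDN11 and testis weight in 16 sheep, Pearson's r was -0.63 (permutation p = 0.0055, or 0.048 after Benjamini-Hochberg adjustment for the 23 relations). Spearman's rho was -0.75 (permutation p = 0.0014). With the 2 sheep of most extreme testis weight left out, r was -0.58 (permutation test, p = 0.020). CLDN11 was also higher in sheep with thinner tubules and less epithelium. For tubule diameter r was -0.63 (permutation p = 0.0063, adjusted p = 0.048) and rho was -0.72 (permutation p = 0.0024), and r was -0.57 without the 2 farthest sheep. For the volume of the seminiferous epithelium, the layer of germ and Sertoli cells lining the tubule, r was -0.63 (permutation p = 0.0058, adjusted p = 0.048) and rho was -0.76 (permutation p = 0.00091), and r was -0.68 without the 2 farthest sheep.

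Both sides of these relations moved with diet, and they did not pass the threshold once diet means were removed. With diet means removed, r was -0.38 for testis weight, -0.33 for tubule diameter and -0.32 for epithelium volume (permutation tests within diets, p = 0.24, 0.25 and 0.26, adjusted p = 0.50 for each). Within the well-fed sheep r with testis weight was 0.42 and rho was 0.00 (p = 0.29 and 1.00 by exact permutation, n = 8). Among the underfed it was -0.58, with a rho of -0.64 (p = 0.15 and 0.096 by exact permutation, n = 8). The value within the underfed sheep rested on few animals. It was 0.06 once the 2 of them with the most extreme testis weights were left out (exact permutation test, p = 0.93, n = 6).

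Low diet replicate 7 stood off the order of the other underfed sheep. It had 370 CPM of CLDN11 and its testes ranked 4 of 8 by weight, heaviest first, among underfed sheep. The underfed sheep with the heaviest testes, replicate 8, had the lowest CLDN11, and the next, replicate 1, the second lowest. The pair with the lightest testes, replicates 2 and 3, had 133 and 183 CPM. Without low diet replicate 7, a choice made after its value was seen, r within the underfed sheep was -0.90 with testis weight and -0.90 with epithelium volume (exact permutation tests, p = 0.0056 and 0.0081, adjusted p = 0.034 and 0.037, n = 7). The slope of log2 CLDN11 on testis weight was -0.61 (standard error 0.25) per 100 g in underfed and 0.31 (standard error 0.43) per 100 g in well-fed sheep. The difference between the slopes, -0.91 (standard error 0.50), had an adjusted p of 0.27 from limma across all genes. It was -0.86 without low diet replicate 7 (standard error 0.30, limma adjusted p = 0.17).

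**Figure D3:**
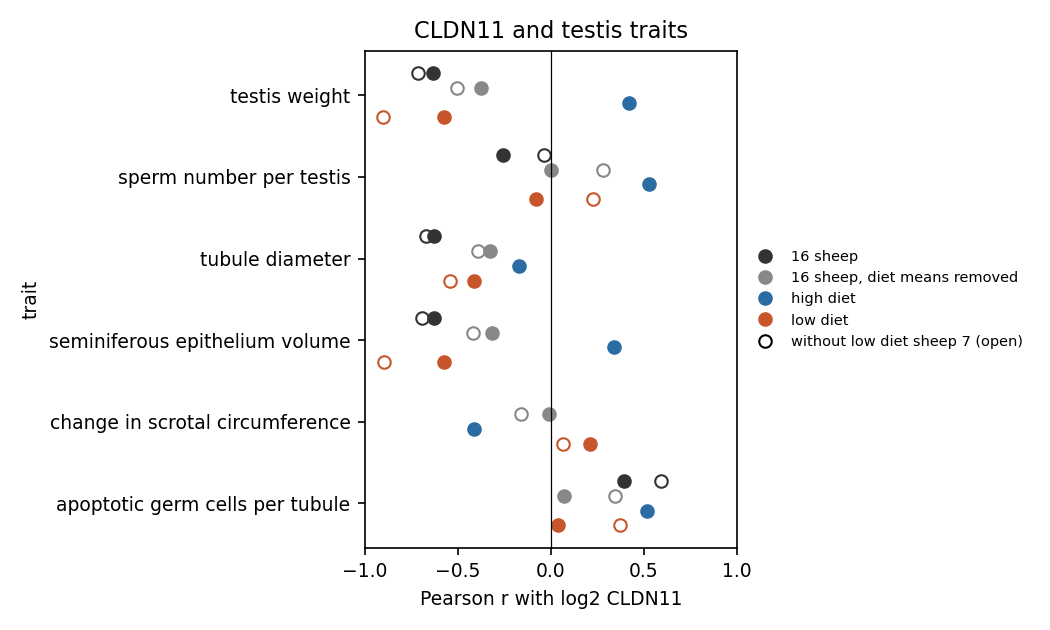
Pearson r between log2 CLDN11 and each testis trait (x axis), for all 16 sheep, for all sheep with diet means removed, and for each diet alone. Open circles leave out low diet replicate 7. No value over 16 sheep is shown for scrotal circumference, on which the diets are fully separate. Within the underfed sheep r with testis weight moves from -0.58 to -0.90 when that sheep is left out.

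By Pearson's r over 16 sheep, relations of CLDN11 with the other traits did not pass the threshold. For apoptotic germ cells per tubule r was 0.39 (permutation p = 0.11, adjusted p = 0.50) while rho was 0.73 (permutation p = 0.0022) over 16 sheep. With the 2 most extreme sheep for this trait left out, r was 0.61 (permutation test, p = 0.019), and within the diets it was 0.51 (well-fed) and 0.04 (underfed), with p = 0.20 and 0.89 by exact permutation (n = 8). For sperm number per testis r was -0.26 (permutation p = 0.33, adjusted p = 0.51) while rho was -0.31 (permutation p = 0.23) over 16 sheep, 0.53 for the well-fed and -0.08 for the underfed alone (p = 0.19 and 0.82 by exact permutation, n = 8). When low diet replicate 7 was left out, r over 15 sheep was -0.04 for sperm number (permutation p = 0.89) and 0.59 for apoptotic germ cells (permutation p = 0.014, adjusted p = 0.054). With diet means removed, r for apoptotic germ cells was 0.07 with all sheep and 0.35 without low diet replicate 7 (permutation tests within diets, p = 0.81 and 0.32). Every sheep of one diet lay apart from the other diet in how scrotal circumference changed, so r is given by diet, at -0.41 in well-fed and 0.21 in underfed (p = 0.28 and 0.56 by exact permutation, n = 8). Among the underfed alone, leaving out that sheep gave 0.23 for sperm number, 0.37 for apoptotic germ cells and 0.07 for scrotal circumference (p = 0.57, 0.39 and 0.87 by exact permutation, n = 7).

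Other genes of Sertoli cell junctions and markers of testis cell types were set beside CLDN11. Symbols were at hand only for genes that the study had listed as differentially expressed or as targets of microRNAs. Of the 1763 genes with a symbol, 90.3% were called, 49.7% as higher and 40.6% as lower in underfed sheep, so high counts are built into these lists and are not independent evidence of a direction. Of 231 gene symbols on the lists, 48 other than CLDN11 had an identifier, and all 48 passed the filter. No other claudin had one. For ZO3, AMOTL2, GATA4, THRA, ACVR1B and ACVR2B the well-fed median was between 2.05 and 3.88 CPM, below the filter's 5 CPM. For SPO11 the underfed median was 4.53 CPM. These genes could pass the filter only with sheep of the other diet, so their direction was partly set by it. To a lesser degree this held for CGN, DSP, INHA, SHBG, INSR, RARA, DES and MYL9. Their lowest well-fed sheep was between 1.21 and 4.33 CPM, so they too needed underfed sheep to pass.

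All 6 tight junction partners described, of 29 on the list, were higher in underfed sheep, with a median log2 fold change of 1.04, beside 0.62 over the genes with a symbol and 0.01 over all genes. The 0.62 pools genes called in either direction, so a list whose members were all called higher cannot be judged against it. F11R, which encodes the junction adhesion molecule JAM-A, averaged 9.74 ± 2.56 CPM (SD, n = 8) on the high diet and 18.7 ± 5.78 CPM (SD, n = 8) on the low diet, with a log2 fold change of 0.69 and a standard error of 0.20 (limma adjusted p = 0.044). INADL (also known as PATJ), a polarity scaffold, ranged from 9.71 to 34.5 CPM in well-fed and from 36.7 to 103 CPM in underfed sheep, with no overlap. Its log2 fold change was 1.46 (adjusted p = 0.018 from limma). The other 4 were CGN, the junction plaque protein cingulin, with a log2 fold change of 1.41, MAGI1, a membrane-associated scaffold, with 1.06, AMOTL2, an angiomotin family member, with 1.02, and ZO3, a scaffold of the zonula occludens family, with 0.97 (adjusted p between 0.043 and 0.069 from limma). AMOTL2 and ZO3 were low, with well-fed medians of 2.61 and 2.05 CPM and underfed medians of 8.40 and 7.62 CPM. Like CGN, they needed underfed sheep to pass the filter, so the count of 6 and the median of 1.04 were partly set by it.

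Of 7 genes of adherens junctions and desmosomes with an identifier, 6 were higher and 1 lower in underfed sheep. CDH2, the N-cadherin that links Sertoli cells to each other and to germ cells, was between 35.8 and 70.4 CPM in well-fed and between 70.8 and 147 CPM in underfed sheep (log2 fold change 0.80, adjusted p = 0.019 from limma). VCL, which encodes the actin linker vinculin, had a log2 fold change of 1.28, and DSP, a desmosome plaque protein, one of 1.19. CTNND1, which encodes p120 catenin, and PVRL2, a nectin, had 0.97 and 0.96. PVRL3, the nectin that spermatids carry where they meet Sertoli cells, was lower in underfed sheep, at 280 ± 103 CPM (SD, n = 8) against 509 ± 189 CPM (SD, n = 8) (log2 fold change -1.04, adjusted p = 0.039 from limma).

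**Figure D4:**
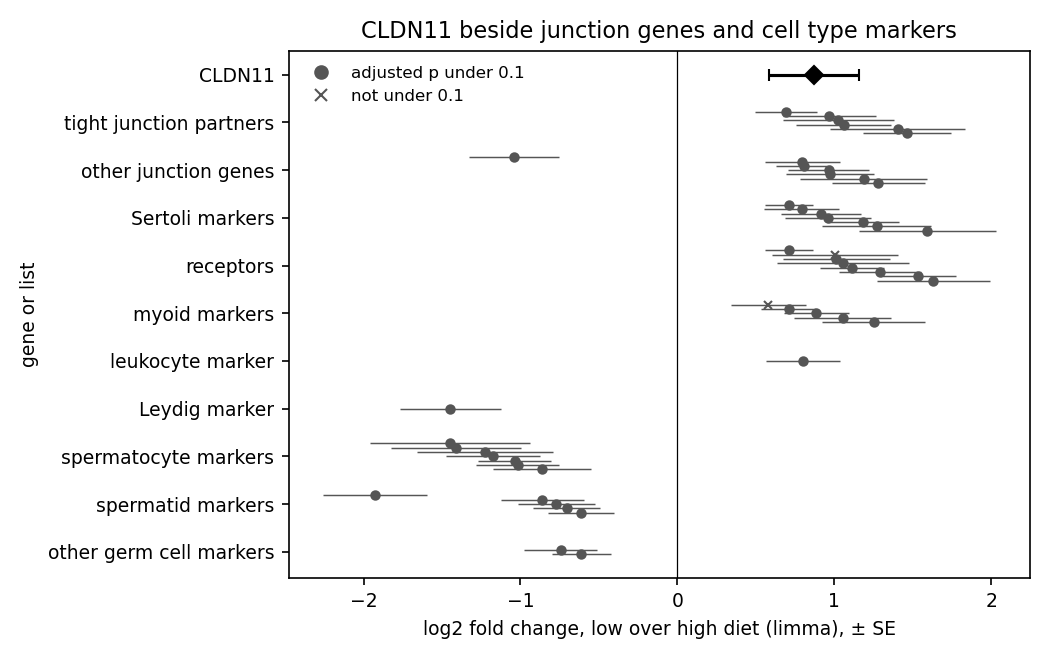
Log2 fold change, low over high diet, with its standard error from limma (x axis), for CLDN11 (diamond) and for the genes of each list that had an identifier (y axis). Circles have an adjusted p under 0.1 and crosses do not. CLDN11, at 0.87, lies with the junction, Sertoli and myoid genes above 0, and PVRL3, the Leydig marker and the germ cell markers lie below 0.

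All 7 other Sertoli cell markers described, of 30 on the list, were higher in underfed sheep, with a median log2 fold change of 0.96 beside the same 0.62 over genes with a symbol. This comparison has the same limit as that of the tight junction partners. FSHR, the receptor for follicle-stimulating hormone, ranged from 28.4 to 42.0 CPM in well-fed and from 52.5 to 83.2 CPM in underfed sheep without overlap (log2 fold change 0.71, adjusted p = 0.020 from limma). WT1 and GATA4, transcription factors of Sertoli cells, had log2 fold changes of 1.18 and 1.59. INHA, the inhibin alpha subunit, had 1.27, and SHBG, which encodes the androgen-binding protein of the tubule, had 0.79. ABCA1, a cholesterol exporter, and MRO had 0.91 and 0.96. The summed level of the 7 was between 139 and 369 CPM in well-fed and between 334 and 893 CPM in underfed sheep. On the log2 scale CLDN11 exceeded the mean of the 7 markers by 1.57 ± 0.75 (SD, n = 8) in well-fed and 1.38 ± 0.83 (SD, n = 8) in underfed sheep, or 1.15 ± 0.56 (SD, n = 7) without low diet replicate 7. These 7 were at hand only through the study's lists, and GATA4, INHA and SHBG needed underfed sheep to pass the filter. How this excess differed between diets therefore cannot be read as CLDN11 against Sertoli genes in general.

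Markers of other cells moved with diet as well. Germ cell markers with an identifier were lower in underfed sheep in 14 of 14 cases, among them SYCP1, a protein of the synaptonemal complex of meiosis, with a log2 fold change of -1.45, HORMAD1, a protein of meiotic chromosome axes, with -1.41, and CATSPERB, a subunit of the sperm calcium channel, with -1.93. The summed level of 7 spermatocyte markers was 1187 to 3397 CPM in well-fed and 484 to 1736 CPM in underfed sheep, and that of 5 spermatid markers was 1535 to 2687 CPM and 852 to 2163 CPM. On library totals 5 of the 7 spermatocyte markers and 3 of the 5 spermatid markers were called lower, and without low diet replicate 7 the counts were 6 of 7 and 5 of 5. Of 5 markers of peritubular myoid cells, 4 were called higher in underfed sheep, among them MYH11, smooth muscle myosin, with a log2 fold change of 1.25. CALD1, not called, also had a change above 0, at 0.58 (adjusted p = 0.109 from limma). The summed level of the 5 was 93.0 to 361 CPM in well-fed and 204 to 721 CPM in underfed sheep. The single leukocyte marker, PTPRC, was higher with a log2 fold change of 0.80 and ranged from 10.9 to 33.6 CPM and from 19.3 to 59.4 CPM, and the single Leydig cell marker, STAR, was lower with -1.45, at 36.0 ± 19.6 CPM (SD, n = 8) in well-fed and 14.1 ± 7.98 CPM (SD, n = 8) in underfed sheep. No marker was at 0 in any library, and markers of endothelial cells and spermatogonia had no identifier. The part of these cell types in the diet difference of CLDN11 was not tested.

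Of 8 hormone and cytokine receptors that act in Sertoli cells, which include FSHR, 7 were called higher in underfed sheep. INSR and IGF1R, the receptors of insulin and of insulin-like growth factor 1, had log2 fold changes of 1.53 and 1.63, and TGFBR3, a coreceptor of the transforming growth factor beta family, had 1.11. THRA, a thyroid hormone receptor, had 1.29. INSR, THRA, RARA, ACVR1B and ACVR2B needed underfed sheep to pass the filter, so the count of 7 was partly set by it. The 1 not called was ACVR2B, an activin receptor named after its value was seen, with 1.00 (adjusted p = 0.102 from limma).

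From sheep to sheep, r between CLDN11 and most of these genes was below 0, with diet means removed. This was also so over all 11147 other genes, where the median r was -0.14 and 18.1% had r above 0.5. The correlation of CLDN11 over 16 sheep was 0.72 with F11R and 0.65 with SHBG, and 0.40 with FSHR. For the 5 other tight junction partners it was between -0.72 (ZO3) and -0.27 (AMOTL2), and for the 5 other Sertoli markers between -0.37 (GATA4) and -0.02 (WT1). Without low diet replicate 7 it was 0.65 with F11R, 0.40 with SHBG and 0.24 with FSHR. For principal components diet means were not removed. The first principal component of the genes tested held 59.6% of the variance. Its correlation with CLDN11 was 0.00 over 16 sheep, and -0.04 without low diet replicate 7. With GATA4, CGN and MRO it was -0.94, -0.93 and -0.92. With the second component, on which low diet replicate 7 lies apart, CLDN11 had r = 0.90, and 0.78 without that sheep. The sheep was left out of the correlation only, and the components were still those computed with it. These correlations are descriptions over 16 libraries, and CLDN11 itself is 1 of the genes behind the components.

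In low diet replicate 7, where CLDN11 was highest of the 16 sheep, most other Sertoli genes were not. Ranks are of CPM, highest first. SHBG was also highest in it, at 36.0 CPM, and FSHR and ABCA1 ranked 3 of 16, at 80.5 and 309 CPM. GATA4, at 10.2 CPM, ranked 9, and WT1, at 37.3 CPM, ranked 5. Among the tight junction partners F11R ranked 2, at 25.4 CPM, and ZO3 ranked 11, at 2.51 CPM. After scaling by the TMM factor, on the log2 scale, F11R and FSHR ranked 1 in this sheep and ABCA1 ranked 2.

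**Figure D5:**
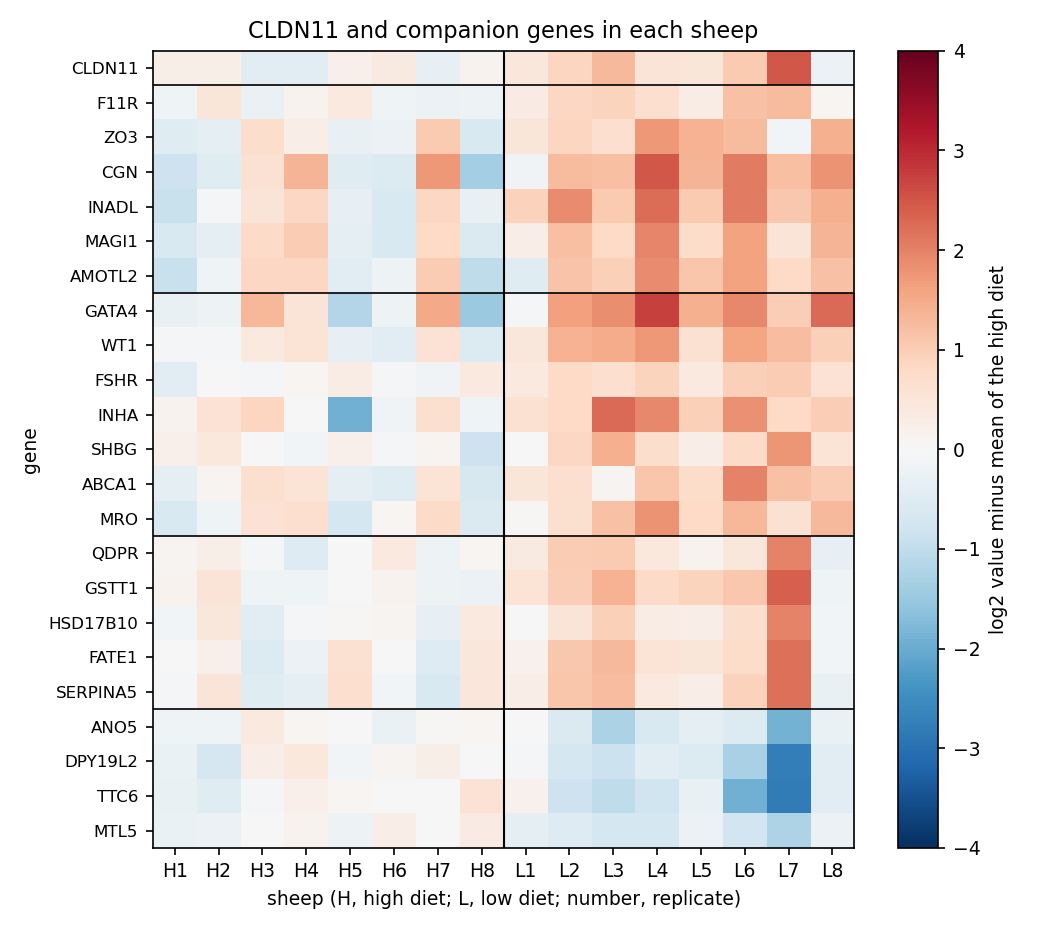
Log2 values of CLDN11 and companion genes (y axis) in each sheep (x axis), as the difference from the mean of the well-fed sheep, with red above and blue below it. Lines separate CLDN11, the tight junction partners, the Sertoli markers, and the genes most like and most unlike CLDN11. In low diet replicate 7 CLDN11 and the 5 genes most like it are all at their highest, and GATA4, CGN and MAGI1 are not.

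The genes with a symbol whose log2 values were most like those of CLDN11 over the 16 sheep, with diet means removed, were QDPR, GSTT1, HSD17B10, FATE1 and SERPINA5. They were taken from 1762 genes by Pearson r, which was 0.94, 0.94, 0.94, 0.92 and 0.92. QDPR encodes dihydropteridine reductase, which recycles tetrahydrobiopterin. GSTT1 encodes a glutathione transferase, HSD17B10 a mitochondrial hydroxysteroid dehydrogenase, and SERPINA5 the protein C inhibitor, a protease inhibitor of the male reproductive tract. FATE1 encodes a protein of the mitochondrial outer membrane found in testis. The r of 4 of the 5 remained among the 5 highest without low diet replicate 7, where r was 0.87 for QDPR, 0.86 for GSTT1, 0.86 for SERPINA5 and 0.85 for FATE1. For HSD17B10 it was 0.85, the sixth highest. Within the well-fed sheep alone r was between 0.63 (GSTT1) and 0.85 (QDPR), and within the underfed sheep, replicate 7 included, between 0.96 (QDPR) and 0.99 (GSTT1). The 5 genes were chosen on these same sheep, so these values are descriptions.

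Of these 5 genes, 3 were called higher in underfed sheep. GSTT1 was at 26.1 CPM in well-fed and 64.7 CPM in underfed sheep on average, a log2 fold change of 0.98 (adjusted p = 0.037 from limma). FATE1 and SERPINA5 had log2 fold changes of 0.80 and 0.76 (adjusted p = 0.070 and 0.0998 from limma). QDPR and HSD17B10 had 0.63 and 0.57 (adjusted p = 0.11 and 0.13 from limma) and were not called. In low diet replicate 7 all 5 had their highest value, as CLDN11 did, and SERPINA5 reached 1682 CPM against an underfed mean of 744 CPM.

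At the other end were ANO5, DPY19L2, TTC6, MTL5 and ZO3, with r of -0.88, -0.87, -0.77, -0.74 and -0.72. DPY19L2 is needed to form the acrosome of the sperm head, MTL5 (tesmin) is a germ cell gene of meiosis, and ANO5 belongs to the anoctamin family of membrane proteins. The first 4 were lowest of all sheep in low diet replicate 7, where DPY19L2 was at 110 CPM against an underfed mean of 486 CPM. These 4 were lower in underfed sheep, with log2 fold changes from -0.99 (TTC6) to -0.60 (MTL5), while ZO3 was higher. In the 15 other sheep r was -0.71 for ANO5 and -0.65 for DPY19L2, and TTC6 and MTL5 were at -0.49 each. Only ANO5 remained among the 5 lowest. These likenesses describe how the genes varied over 16 sheep whose libraries share a tissue and a scaling.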

How the data were processed

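RNA-seq reads were aligned by the authors to the ovine genome (Oar_v3.1) with TopHat2 (version 2.0.10) and counted on Ensembl genes with htseq-count, after demultiplexing with CASAVA (version 1.8). Reads were divided by the library total, and CPM values of 25197 genes per sheep, unfiltered, were deposited by the authors. Whole reads were recovered from CPM, with 100% of values within 0.01 of a whole read.

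Diet was taken from the sample labels. Genes that exceeded 5 CPM in 8 or more libraries, 11148 in all, entered a limma trend fit (limma version 3.58.1). Values were CPM over the TMM factor, plus 1 CPM, in log2, a scale that understates the change of low genes, and TMM factors came from edgeR (version 4.0.16) over the same genes. An adjusted p under 0.1 was the threshold. Count tests (edgeR's quasi-likelihood test and DESeq2, version 1.42.0, in R 4.3.3) on recovered reads were alternatives. Single values were compared with exact permutation tests, and correlations with 100000 resamples or exactly within a diet, two-sided (Python 3.11.15, scipy 1.17.1). Trait values were those of the study's table of phenotypes. The sample labels do not say that same-numbered sheep were pairs, and the main fit used no block. Of 8 same-numbered pairs, 2 had deviations from the diet means that correlated above 0.1. This cannot show whether sheep were matched when they were allocated to diets.

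Named genes were CLDN11, called members of each list from its 5 largest changes in a direction, the tight junction partners and Sertoli markers past the filter, and the 5 genes with a symbol most and least like CLDN11. CLDN11, the lists and the tests were chosen with earlier results of these data known. Symbols for 1763 genes came from the study's supplementary tables. ZO3 was taken as TJP3 of the list after the symbols were seen. Some list genes are not reported here. The sequence and genome position of CLDN11 were not analysed here. The limma fit was tested on simulated counts.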

Additional observations from a re-analysis of the deposited data

Results flagged for a closer look

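In groups of 8 sheep, the gap of the highest or lowest sheep to its neighbour was compared with the range of the group (Dixon's test, 95% critical value). The test was run on CPM only, a scale on which spread grows with the mean. CLDN11, the tight junction partners, the Sertoli markers and the genes most and least like CLDN11 gave 46 groups, of which 6 had a sheep that stood apart, where chance gives about 1 in 20 for groups not chosen by their values. Genes most and least like CLDN11 were chosen with its high value in low diet replicate 7 included, so the count cannot be read against that rate. CLDN11 stood apart in low diet replicate 7, at 370 CPM, with a gap of 0.60 of the range. GSTT1 and HSD17B10, which were chosen for their likeness to it, stood apart in the same sheep, at 146 and 75.6 CPM. ABCA1 stood apart in low diet replicate 6 at 577 CPM. FSHR was lowest in high diet replicate 1 at 28.4 CPM and SHBG in high diet replicate 8 at 3.84 CPM. On the log2 scale CLDN11 was 8.54 in low diet replicate 7, 7.35 in the next, replicate 3, and 5.81 in the lowest, replicate 8. INHA, not flagged on CPM, had a log2 value of 2.38 in high diet replicate 5. Its next lowest in well-fed sheep was 4.15, in replicate 8, and its highest 5.17, in replicate 3. Whether any sheep stood apart on the log2 scale was not tested. The causes were not tested.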

How the results depend on the processing

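The log2 fold change of CLDN11 was above 0 under every alternative run, and its adjusted p passed 0.1 except in 6 of them. It was 0.83 without a filter (adjusted p = 0.118 from limma), where 22284 genes were tested and the TMM factors came from all of them. It was 0.87 with the replicate block (adjusted p = 0.119 from limma) and 0.46 with testis weight as a covariate (adjusted p = 0.85 from limma). The other 3 of the 6 left out 1 underfed sheep each. Leaving out each sheep gave 0.64 to 1.03, and limma's adjusted p ran from 0.044 to 0.117. With TMM factors over all genes, added after the data were seen, it was 0.83 (adjusted p = 0.081 from limma). The count tests gave 1.07 with edgeR's quasi-likelihood test (adjusted p = 0.048) and 1.10 with DESeq2 (adjusted p = 0.012). Of the genes tested, 2396 were called, against 1174 with the replicate block, 0 with testis weight as a covariate and 738 to 3667 with 1 sheep left out. The count moved by over 1.5 times without high diet replicate 1, 5, 6 or 8 and without low diet replicate 1, 4, 6 or 8. With same-numbered sheep as a replicate block, the exact sign-flip test of CLDN11 alone gave p = 0.031.

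The difference in spread moved past 0.05 on the CPM scale, at 48.5 CPM (exact permutation test, p = 0.0042), and was 0.10 to 0.36 on the log2 scale with 1 sheep left out. The difference of mean log2 values alone was 0.64 to 1.03 with 1 sheep left out and past 0.05 each time. Relations with traits that changed sign had permutation p above 0.05 both before and after the change. That with testis weight in underfed sheep was unstable, as it also moved past 0.05 without low diet replicate 7. Without the 2 farthest sheep, r was 0.0573 for testis weight in underfed sheep, 0.24 for tubule diameter in well-fed sheep, 0.0456 for the change in scrotal circumference with diet means removed and -0.0361 for apoptotic cells in underfed sheep. On the CPM scale r with diet means removed was -0.10 for sperm number, 0.0747 for the change in scrotal circumference and -0.0533 for apoptotic cells, and -0.0613 for apoptotic cells in underfed sheep. Relations that moved past an unadjusted 0.05 were those with apoptotic cells over 16 sheep without the 2 farthest sheep (r = 0.61) and, without low diet replicate 7, the same relation (0.59) and those with testis weight (-0.90) and epithelium volume (-0.90) in underfed sheep. Without that sheep r with sperm number in underfed sheep was 0.23. The causes were not tested.

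Of the 48 list members, 46 were called, and 47 with edgeR's quasi-likelihood test, 44 on library totals and 47 without low diet replicate 7, which was added after the data were seen.

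Depth did not limit CLDN11, which had at least 472 reads in each library.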
